A study of Mus musculus with 2 samples.

Results

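The 9 genes described here encode heavy chains of major histocompatibility complex (MHC) class I molecules of the mouse: H2-K1, H2-D1, H2-Q4, H2-Q6, H2-Q7, H2-T22, H2-T23, H2-T24 and H2-M3. They were taken by symbol from 26082 genes, and each symbol had 1 entry. The list was chosen from the FPKM and counts of the same libraries that are compared here, so the ratios of its members are a description and carry no test. FPKM is the number of sequenced fragments of a gene scaled by its exon length and by the total of the library, a level per length that can be set side by side between genes.

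RNA was sequenced from primary fibro-adipogenic progenitors (FAPs), stromal cells of skeletal muscle that can become adipocytes or fibroblast-like cells, sorted by flow cytometry from hind limb muscle of wild-type C57BL/6 mice that were bought as young adults. One culture received a plasmid that overexpresses TGFBR3, a co-receptor for TGF-β ligands, and the other received the vector, with no other difference stated. The labels list a growth medium with 20% fetal bovine serum and an adipogenic medium that adds insulin at 10 μg/ml, dexamethasone at 0.25 μM and the phosphodiesterase inhibitor IBMX at 0.5 mM, and do not say in which of them the sequenced cells were kept. Each condition had 1 library of paired 150 nt reads, so no difference below has a replicate check, and the intervals, exact at the 95% level, cover the error of counting reads only and compare libraries, not conditions.

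The library labelled TGFBR3 OE held 62321027 counts and that labelled control 83779203, and 19804 and 19545 genes had more than 3 counts. Tgfbr3 itself was measured at 36.87 and 35.13 FPKM (16372 and 21245 counts), a log2 ratio of 0.07 with an interval from 0.04 to 0.10. The targeted gene was therefore not raised in the way its label states, and the libraries are named by their labels throughout. An exchange of the labels would turn every direction given here, and neither that nor whether reads of the plasmid were counted as Tgfbr3 was tested. Of the FAP markers, 7 of 8 had a mean of at least 1 FPKM, among them Pdgfra at 30.48 and 32.6 FPKM, while Lum was near 0 in both libraries.

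Class I heavy chains pair with the light chain β2-microglobulin and hold a peptide from inside the cell at its surface, where CD8 T cells and natural killer cells read it. H2-K1 and H2-D1 encode the classical chains, which present varied peptides, whereas the genes of the Q, T and M regions encode nonclassical chains with narrower ligands or no known peptide. Classical class I promoters are known to carry an enhancer with a κB site next to an interferon response element and, nearer the start, a module of X and Y boxes on which the transactivator NLRC5 acts, so interferons and NF-κB raise these genes in most cells.

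The stretches just before the transcription start are shown because they hold the elements through which class I genes are commonly regulated, and because they let the reader see how alike the members are in sequence. RefSeq windows on GRCm38.p6 were found for 8 of the 9 genes, all but H2-T24. Each line gives the bases up to the RefSeq start, read from 5′ to 3′ on the strand of the gene, and all lines have the same length. Capitals mark matches, on either strand, to a κB motif (GGGNNTTCC), an interferon regulatory factor motif (TTTCACTT), the core of an interferon-stimulated response element (TTTCNNTTT), a motif like a cyclic AMP response element as in the X box (TGNTGAC), or the CCAAT of a Y box.
H2-K1, chr17:34000348-34000552, minus strand: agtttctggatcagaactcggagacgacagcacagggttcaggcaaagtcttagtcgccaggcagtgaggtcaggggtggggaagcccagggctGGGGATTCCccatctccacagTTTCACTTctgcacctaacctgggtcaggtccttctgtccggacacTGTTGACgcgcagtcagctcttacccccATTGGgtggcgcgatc
H2-Q4, chr17:35379412-35379616, plus strand: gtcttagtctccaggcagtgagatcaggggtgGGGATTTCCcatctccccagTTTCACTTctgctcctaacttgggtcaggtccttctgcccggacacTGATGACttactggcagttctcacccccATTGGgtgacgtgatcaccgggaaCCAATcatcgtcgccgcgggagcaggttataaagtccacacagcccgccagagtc
H2-Q6, chr17:35424645-35424849, plus strand: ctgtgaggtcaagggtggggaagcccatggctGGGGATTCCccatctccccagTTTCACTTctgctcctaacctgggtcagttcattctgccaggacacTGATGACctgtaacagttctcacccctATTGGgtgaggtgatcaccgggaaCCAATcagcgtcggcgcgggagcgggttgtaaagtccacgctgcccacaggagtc
H2-Q7, chr17:35438950-35439154, plus strand: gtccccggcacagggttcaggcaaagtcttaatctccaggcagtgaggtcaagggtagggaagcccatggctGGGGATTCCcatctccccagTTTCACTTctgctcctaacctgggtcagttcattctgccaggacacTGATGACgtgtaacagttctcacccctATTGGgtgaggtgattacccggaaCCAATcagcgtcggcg
H2-T22, chr17:36042743-36042947, minus strand: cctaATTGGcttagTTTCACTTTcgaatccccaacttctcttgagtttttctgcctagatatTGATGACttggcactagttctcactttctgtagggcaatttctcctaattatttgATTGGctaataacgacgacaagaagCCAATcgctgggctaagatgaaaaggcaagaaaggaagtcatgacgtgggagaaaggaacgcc
H2-M3, chr17:37270029-37270233, plus strand: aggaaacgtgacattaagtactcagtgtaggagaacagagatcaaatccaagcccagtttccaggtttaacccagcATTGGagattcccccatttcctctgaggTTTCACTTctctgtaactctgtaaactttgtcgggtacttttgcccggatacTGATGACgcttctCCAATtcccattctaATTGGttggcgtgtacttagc

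H2-K1, H2-Q4, H2-Q6 and H2-Q7 share the same order of capitals, a κB match, the interferon regulatory factor match, the TGNTGAC match and a CCAAT on the opposite strand, which reads ATTGG. The same order was found in H2-D1, whose window is not printed. The κB and interferon regulatory factor matches began 21 bases apart in H2-K1, H2-D1 and H2-Q6 and 20 bases apart in H2-Q4 and H2-Q7, and the TGNTGAC match began 46 bases further in all 5 genes. H2-T22 lacked a κB match, and its interferon regulatory factor match lies within a match to the response element core, so these motifs overlap there. H2-M3 likewise lacked a κB match and had the interferon regulatory factor motif 52 bases before TGNTGAC, against 48 bases in H2-T22. H2-T23, also not printed, had the response element core and CCAAT, and its TGNTGAC match was on the opposite strand close to the start.

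**Figure D1:**
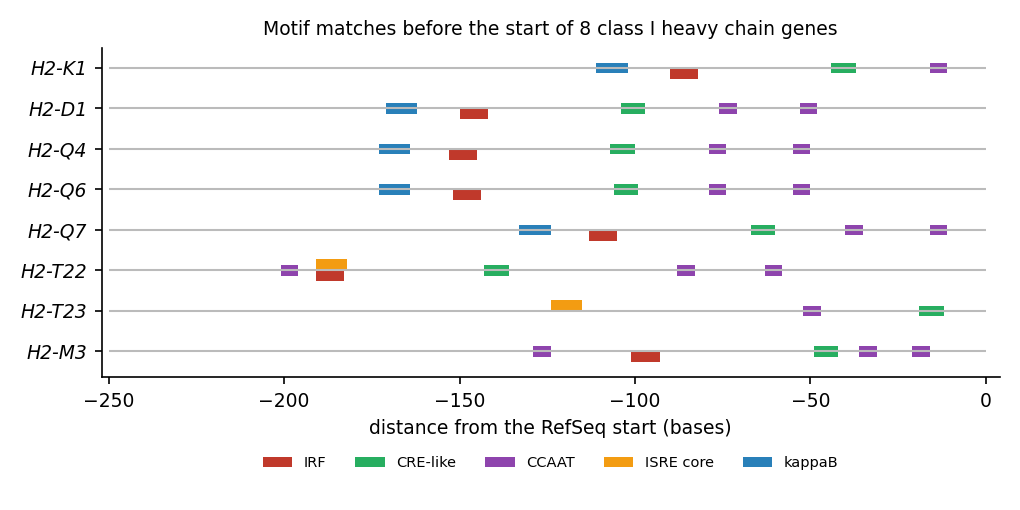
Positions of the motif matches in the 250 bases before the RefSeq start of 8 class I heavy chain genes (horizontal axis, distance from the start in bases), with 1 row per gene and 1 symbol per motif. H2-K1, H2-D1, H2-Q4, H2-Q6 and H2-Q7 hold the matches in the same order, and κB is missing from H2-T22, H2-T23 and H2-M3.

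Over the 250 bases searched before the start, 5 of the 8 members had a κB match, against 4.98% of 32851 RefSeq windows of that length. The interferon regulatory factor motif was in 7 members and in 1.36% of windows, the response element core in 2 members and in 9.37%. TGNTGAC was in 8 members and in 11.7% of windows, and CCAAT in 8 members and in 33.8%. κB, either interferon motif, TGNTGAC and CCAAT were found together in 5 members and in 16 of the 32851 windows, or 0.0487%, and 6 of these 16 windows are the members' own, 2 of them of H2-K1. The motifs were picked after these windows had been read, and members arose from each other by gene duplication, so their windows are not independent. A match is a run of letters and no measured binding.

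By level, the heavy chains ranged from abundant to near silent, and 8 of the 9 passed 2-fold in favour of the library labelled TGFBR3 OE. H2-Q6 had the highest ratio, H2-M3 had nearly the same level in both libraries, and no member was lower by 2-fold. Among 11213 genes with a mean of at least 1 FPKM, 3.14% passed 2-fold in that direction and 1.03% in the other. The rule that chose the members used this same contrast, so nothing is read from their share against this background. Differences are log2 ratios of (FPKM + 1), library labelled TGFBR3 OE over that labelled control, a scale on which low genes appear less changed than on plain FPKM. The median of the 9 ratios was 1.60, and the median of the 11213 genes was 0.14. The median gene with at least 1 FPKM in both libraries (10626 genes) was shifted by 0.13, and ratios called centred below have this shift subtracted.

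**Figure D2:**
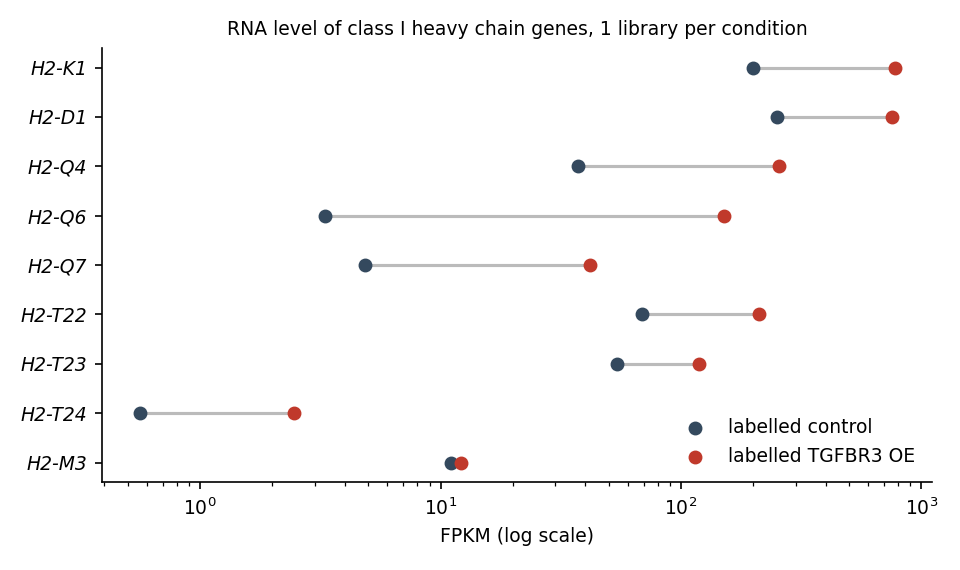
FPKM (horizontal axis, log scale) of each class I heavy chain gene (vertical axis) in the library labelled TGFBR3 OE and in the library labelled control, 1 point per library. A grey line joins the points of a gene and is not an interval. H2-Q6 is at 150.92 and 3.30 FPKM, and H2-M3 at 12.15 and 11.08 FPKM.

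Both classical heavy chains were among the abundant RNAs of these cells. H2-K1 (ENSMUSG00000061232), on the minus strand of mm10 chr17:33996017-34000347, was at 773.83 FPKM in the library labelled TGFBR3 OE and at 198.60 FPKM in that labelled control, from 154240 and 53920 counts. Its log2 ratio was 1.96 with an interval from 1.94 to 1.97, or 3.90-fold on plain FPKM. H2-D1 (ENSMUSG00000073411), on the plus strand at chr17:35262730-35267499, was at 751.35 and 250.56 FPKM from 131455 and 59704 counts. This gave a log2 ratio of 1.58 with an interval from 1.57 to 1.59, or 3.00-fold. H2-D1 was thus above H2-K1 in the library labelled control and below it in the other, and the intervals of the pair did not overlap in either library.

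The Q region genes encode Qa chains, of which H2-Q6 and H2-Q7 contribute to the Qa-2 antigen and H2-Q4 gives Qb-1. These 3 had the highest ratios of the 9 genes described here. H2-Q5, which is not among the 9, had a log2 ratio of 4.33. H2-Q4 (ENSMUSG00000035929, chr17:35379617-35385290, plus strand) was at 256.42 and 37.36 FPKM from 45159 and 8962 counts, a log2 ratio of 2.75 (interval 2.71 to 2.78). H2-Q6 (ENSMUSG00000073409, chr17:35424850-35430055, plus strand) was at 150.92 and 3.30 FPKM from 21347 and 636 counts. Its log2 ratio of 5.14 (interval 5.05 to 5.23) was the 4th highest of the 11213 genes, and its plain FPKM was 45.7-fold higher, with an interval from 42.3 to 49.6. H2-Q6 was therefore the next to lowest of the 9 genes in the library labelled control and the 5th highest in that labelled TGFBR3 OE. H2-Q7 (ENSMUSG00000060550, chr17:35439155-35443773, plus strand) was at 41.72 and 4.84 FPKM from 12075 and 1911 counts, with a log2 ratio of 2.87 (interval 2.81 to 2.93). The exons merged over its annotated transcripts span 4265 bases, against 2085 in H2-Q6, and FPKM divides by this length. On CPM, counts scaled by the library total without that division, H2-Q7 was at 194 and 22.8 and H2-Q6 at 343 and 7.59.

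The 3 T region members showed smaller ratios than the 3 Q region members. This did not hold for all genes of the 2 regions. Outside the members, H2-T10 had a log2 ratio of 2.69, H2-Q1 of 1.25 and H2-Q5 of 4.33. H2-T22 (ENSMUSG00000056116, chr17:36037128-36042747, minus strand), whose product is a ligand of some γδ T cell receptors, was at 211.35 and 69.04 FPKM from 48952 and 21780 counts. Its log2 ratio was 1.60 (interval 1.58 to 1.62), and it is the middle value of the 9 genes. H2-T23 (ENSMUSG00000067212, chr17:36029773-36032855, minus strand) encodes Qa-1, which shows leader peptides of other class I chains to the NKG2A receptor of natural killer cells. It was at 118.44 and 54.13 FPKM from 23214 and 14451 counts, with a log2 ratio of 1.12 (interval 1.09 to 1.15), and its centred ratio was 0.99, just under 2-fold. H2-T24 (ENSMUSG00000053835, chr17:36005695-36020560, minus strand) was the lowest member in both libraries, at 2.45 and 0.56 FPKM from 364 and 114 counts. Its log2 ratio was 1.15, its plain ratio was 4.38-fold (interval 3.54 to 5.45), and removing the trend over GC content put the log2 ratio at 0.96.

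H2-M3 (ENSMUSG00000016206, chr17:37270220-37274484, plus strand), which presents N-formylated peptides such as those of bacteria and mitochondria, stood apart from the other 8. It was at 12.15 and 11.08 FPKM from 1186 and 1473 counts, a log2 ratio of 0.12 with an interval from 0.02 to 0.22. The centred ratio was -0.0038. H2-M3 ranked 5801st of the 11213 genes, and the next member, H2-T23, ranked 278th. H2-T23 and H2-T24 were the members just past 2-fold, with log2 ratios of 1.12 and 1.15, and H2-M3 was the 1 member short of it.

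**Figure D3:**
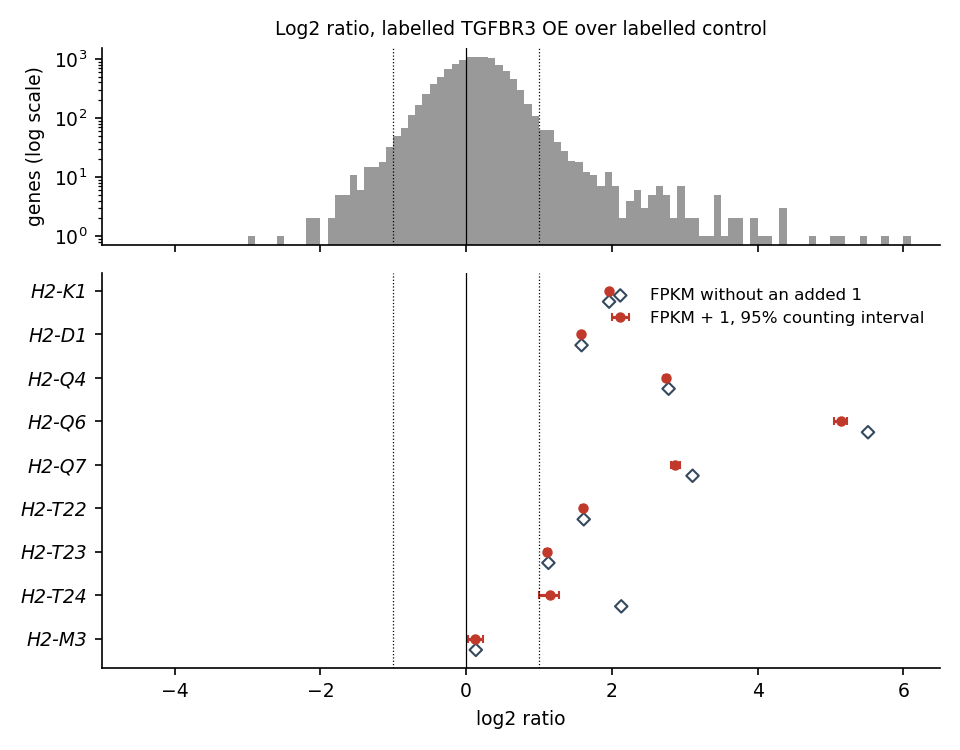
Log2 ratio of (FPKM + 1), library labelled TGFBR3 OE over library labelled control (horizontal axis), as a histogram of genes with a mean of at least 1 FPKM (number of genes on a log scale) above the 9 class I heavy chain genes, shown with 95% counting intervals. The members lie between 0.12 for H2-M3 and 5.14 for H2-Q6, and the median of the 11213 genes is 0.14.

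Ranked by FPKM, the order in the library labelled control was H2-D1, H2-K1, H2-T22, H2-T23, H2-Q4, H2-M3, H2-Q7, H2-Q6 and H2-T24. In the library labelled TGFBR3 OE it was H2-K1, H2-D1, H2-Q4, H2-T22, H2-Q6, H2-T23, H2-Q7, H2-M3 and H2-T24. No neighbours in either order had overlapping counting intervals, but the spread between cultures was not measured. H2-Q4 and H2-Q6 each moved up past at least 1 T region gene. H2-Q7 passed H2-M3 but was passed by H2-Q6 and stayed 7th, and H2-T24 stayed last.

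Summed over the 9 genes, heavy chain RNA was 2318.63 FPKM in the library labelled TGFBR3 OE and 629.47 FPKM in that labelled control, a ratio of 3.68. Their reads were 0.703% and 0.195% of all counts. The classical pair gave 65.8% and 71.4% of the summed FPKM. Q region genes made up 19.4% of it in the library labelled TGFBR3 OE and 7.23% in the other, with 449.06 and 45.5 FPKM. T region genes gave 332.24 and 123.73 FPKM, or 14.3% and 19.7% of the sum. H2-Q6 alone accounted for 6.51% and 0.524% of it, whereas H2-M3 accounted for 0.524% and 1.76%. These shares rest on how reads were divided among genes that resemble each other.

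**Figure D4:**
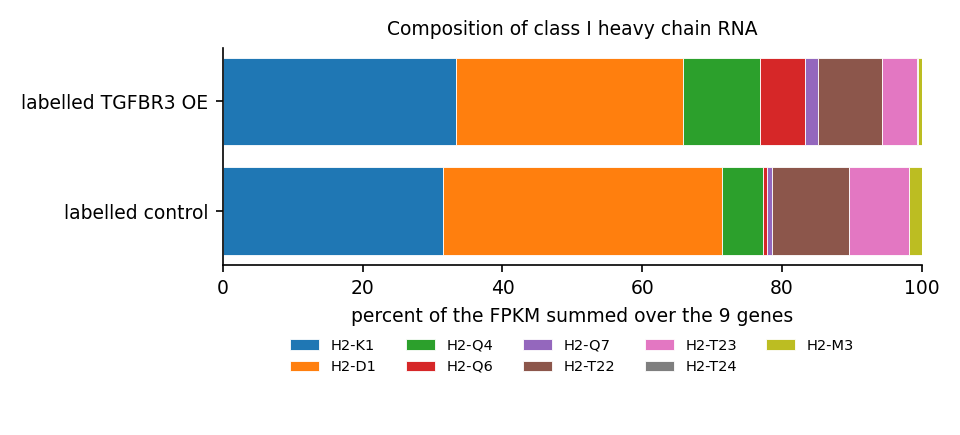
Percent of the FPKM summed over the 9 class I heavy chain genes (horizontal axis) that each gene contributed, with 1 stacked bar per library. The Q region genes make up 7.23% of the bar of the library labelled control and 19.4% of that labelled TGFBR3 OE.

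The members share long stretches of sequence, which limits how surely a read can be given to 1 of them. The share of the 31-base words of a gene that also occurred in transcripts of other genes was 51.0% for H2-T22, mostly with H2-T10, and 50.3% for H2-Q6, mostly with H2-Q4 and H2-Q7. It was 39.1% for H2-Q7, 38.4% for H2-Q4, 26.7% for H2-D1, 24.5% for H2-T23 and 22.8% for H2-K1. H2-T24 and H2-M3 were nearly unique, at 6.43% and 4.62%. Across the 9 genes, the shared percentage and the plain log2 ratio had a Spearman rho of 0.53. FPKM in the library labelled control and the same ratio had a rho of -0.52. Both values describe genes of the same libraries that are not independent. H2-Q6 and H2-T22 had almost the same shared percentage, and their log2 ratios were 5.14 and 1.60. They share words with different genes, and the part of read assignment in either ratio was not tested. H2-Q8 and H2-Q9, near copies of H2-Q6 and H2-Q7 in C57BL/6 mice, had no entry under these symbols. Whether reads from them entered the values of H2-Q6 and H2-Q7 was not tested. Exons of H2-Q4 overlap Gm11131 and those of H2-T22 overlap A930015D03Rik, and whether counting used the strand is not given in the sources used here.

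Relatives of the members on the same chromosome that had a mean of at least 1 FPKM were higher in the library labelled TGFBR3 OE, though not all by 2-fold. Of 29 other class I genes listed for the H2 region, 11 were in the files and 4 had a mean of at least 1 FPKM, all 4 of them at least 2-fold higher. Of all 11213 genes with such a mean, 3.14% were at least 2-fold higher. The mean takes in the library where a gene is high. H2-K2, and Gm9574 below, reached 1 FPKM only in that library, so the filter in part fixes the direction. H2-Q5 was at 51.95 and 1.64 FPKM and H2-T10, the near copy of H2-T22, at 22.58 and 2.65 FPKM, giving log2 ratios of 4.33 and 2.69. H2-K2, annotated as a pseudogene, was at 4.24 and 0.39 FPKM and H2-Q1 at 6.94 and 2.34 FPKM, with log2 ratios of 1.91 and 1.25. Beyond the list, and added after their values were seen, the pseudogenes H2-T-ps and Gm9574 stayed short of 2-fold. H2-T-ps, with 35.5% of its 31-base words in H2-T23, was at 39.36 and 26.18 FPKM (0.57). Gm9574, with 9.82% of its words in H2-T23, was at 1.77 and 0.39 FPKM (0.99). These relatives share sequence with the members, so their values are uncertain in the same way.

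Among class I-like genes outside the H2 region, those expressed stayed within 2-fold. Of 14 listed, 12 were in the files and 0 of the 9 with a mean of at least 1 FPKM were 2-fold higher or lower. Among the 11213 genes with such a mean, 3.14% were higher and 1.03% lower, so a count of 0 in 9 genes does not set this list apart. Procr, the endothelial protein C receptor, was at 48.18 and 27.59 FPKM, a log2 ratio of 0.78. Mr1, which presents vitamin B metabolites to MAIT cells, was at 6.06 and 3.62 FPKM (0.61), and Raet1e, a ligand of NKG2D, at 9.53 and 6.22 FPKM (0.54). Fcgrt, the heavy chain of the neonatal Fc receptor, was lower in the library labelled TGFBR3 OE, at 70.42 against 94.0 FPKM (-0.41).

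Of the light chain and the genes that supply peptide to class I molecules, 7 of 14 were at least 2-fold higher and 0 were 2-fold lower. Their median log2 ratio was 1.06. The shares over the 11213 genes with a mean of at least 1 FPKM were 3.14% higher and 1.03% lower, so the count of 0 lower is near its background. Calr was lower in the library labelled TGFBR3 OE but short of 2-fold, at 482.45 and 697.79 FPKM (-0.53). B2m, the light chain, was at 3077.42 and 1195.27 FPKM from 179541 and 94974 counts, a log2 ratio of 1.36 (interval 1.35 to 1.37) and a plain ratio of 2.57. Summed heavy chain FPKM per B2m FPKM was 0.753 in the library labelled TGFBR3 OE and 0.527 in that labelled control. Psmb9 and Psmb8, subunits of the immunoproteasome, were at 9.18 and 1.78 FPKM and at 40.76 and 10.78 FPKM, with log2 ratios of 1.87 and 1.83. Erap1, which trims peptides in the endoplasmic reticulum, was at 9.11 and 2.68 FPKM (1.46).

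Of 17 transcription factors and cofactors of class I genes, 4 were at least 2-fold higher and 0 lower, with a median log2 ratio of 0.30. The same background shares, 3.14% higher and 1.03% lower over the 11213 genes, apply here, and the count of 0 lower is again near its background. Nlrc5, the class I transactivator, was at 6.24 and 1.10 FPKM from 3598 and 870 counts, a log2 ratio of 1.79 (interval 1.72 to 1.85). Irf7, which drives type I interferon genes, was at 278.68 and 20.98 FPKM, a log2 ratio of 3.67. Stat2, which carries the type I interferon signal to the nucleus, was at 48.45 and 17.59 FPKM, a log2 ratio of 1.41. The part of these factors in the levels of the heavy chains was not tested.

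Class II molecules present peptides from outside the cell, and Ciita turns on their genes. The list of class II chains and Ciita was low, with H2-DMb1 highest at 9.13 and 9.71 FPKM. Of 10 listed, 9 were in the files, and 0 of the 3 with a mean of at least 1 FPKM passed 2-fold. With 3.14% of the 11213 such genes higher and 1.03% lower, a count of 0 in 3 genes does not set this list apart. H2-Ab1 was at 5.38 and 8.54 FPKM, a log2 ratio of -0.58, and H2-DMa at 2.2 and 3.06 FPKM (-0.34). Cd74, the invariant chain, was at 0.19 and 0.11 FPKM.

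Most other genes of the H2 region did not pass 2-fold. A list of 28 neighbours had 0 genes at least 2-fold higher and 1 lower, Flot1 at 13.59 and 29.73 FPKM (log2 ratio -1.07), and a median of 0.02. Tapbp, the tapasin that edits class I peptides, came near 2-fold at 128.52 and 64.8 FPKM (0.98), Trim26 was at 14.89 and 8.16 FPKM (0.79), and Rpp21 at 3.05 and 5.20 FPKM (-0.61). Over the 3278 kb from H2-K1 to H2-M3, 75 expressed genes were neither members nor among the class I relatives named above. Of these, 7 or 9.33% were at least 2-fold higher and 3 lower, with a median of -0.06. Over the 11213 genes with a mean of at least 1 FPKM, 3.14% were higher and 1.03% lower. The higher ones, named after their values were seen, were Psmb9, Psmb8 and Tap1 of peptide supply, the complement genes C4b, Cfb and C2, and Znrd1as. None of these was on the list of 28 neighbours. The lower ones were Gm20427, Ddah2 and Flot1.

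**Figure D5:**
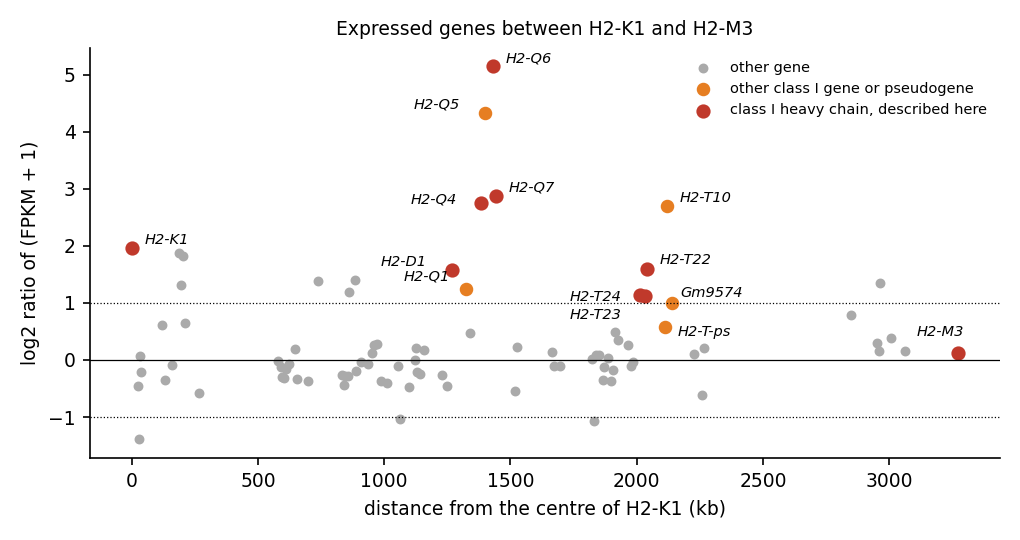
Log2 ratio of (FPKM + 1) (vertical axis) of genes with a mean of at least 1 FPKM, by distance from the centre of H2-K1 on chromosome 17 in kb (horizontal axis), with members, other class I genes or pseudogenes, and other genes marked. The 75 other genes have a median of -0.06, and 8 of the 9 members and 3 of 5 other class I genes or pseudogenes in the interval lie above 1.

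Outside the locus, the 5 genes whose log2 ratio lay nearest to the members' median of 1.60, by the absolute difference over the 2 libraries, were Gm15640, Ms4a4d, Parp11, Rtp4 and Parp12. Their ratios ran from 1.58 to 1.59, Rtp4 for example at 58.41 and 18.85 FPKM. With 2 libraries, likeness is a single number per gene, and many genes can share it.

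Leukocytes carry more class I RNA than most cells, so their markers were measured beside these results. All 3 markers of T or natural killer cells in the files were at 0 in both libraries, and the 4 of B or dendritic cells summed to 0.09 and 0.06 FPKM. The 10 macrophage markers summed to 3.85 and 2.58 FPKM, with Adgre1, Fcer1g and Tyrobp at 0 in both libraries, Ptprc at 0 FPKM in both and Cd68 highest at 2.94 and 2.04 FPKM. The 6 endothelial markers summed to 1.36 and 0.94 FPKM and the 4 muscle markers to 1.63 and 1.30 FPKM. The 8 FAP markers summed to 1649 and 1859 FPKM. Of the FAP markers, Ly6a, which encodes Sca-1, was at 1013 and 706 FPKM, and Dpt and Col3a1 had log2 ratios of -1.12 and -1.05. In bulk RNA, more cells that express a gene and more RNA per cell cannot be told apart.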

How the data were processed

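The authors deposited, for each library, a raw read count and an FPKM value (rounded to 2 decimals) per gene. Polyadenylated RNA was made into libraries with dUTP marking of the second strand per the labels, while the methods name the KC-Digital stranded kit. The methods name STAR and FeatureCounts on mm10, and the submitters' processing notes list cutadapt 1.9, HISAT2 2.2.1, StringTie 2.1.6, DESeq2 and edgeR; which of them made the deposited files, and the annotation release, are not given in the sources used here. The deposited FPKM of the 9 genes lay within 1% of count over merged exon length and 1 library total. A fold in FPKM thus depends on that total.

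Levels were compared as log2 ratios of (FPKM + 1) with a threshold of 2-fold, and no count model was run, since each condition had 1 library. Exact Clopper-Pearson intervals at the 95% level were computed from the counts. They shrink with depth, and unless molecular identifiers were used to remove duplicates, reads are not independent molecules. Members, lists, motifs and alternatives were chosen with earlier results of these data known. All members were named, and so were B2m, Nlrc5, Tgfbr3 and the 5 genes nearest to the members' median. For each other list the rule allowed up to 4 genes by the absolute log2 ratio, and not all of these are printed. Genes named outside this rule were chosen after their values were seen. An item that the rule would name is not reported here. Coordinates, exon lengths, GC content and shared 31-base words came from GENCODE M21 on mm10, with 26012 of 26082 identifiers found, and promoter windows from RefSeq on GRCm38.p6. The calculations were tested on simulated data, with Python 3.11.15, NumPy 2.4.6, pandas 2.3.3, SciPy 1.17.1 and Matplotlib 3.10.9. Alternatives were pseudocounts, rescaling, CPM, trends over GC content and length, thresholds, filters and shared sequence.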

Additional observations from a re-analysis of the deposited data

How the results depend on the processing

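The 8 members above 2-fold kept their direction under every alternative, H2-M3 was at -0.0038 when centred, and of 90 values of single members under the alternatives 51 moved by less than the counting interval and 39 by more. The ratio of H2-Q6 ran from 5.02 to 5.52 and that of H2-T24 from 0.96 to 2.13. Centred on the median gene, the median of the members was 1.47, 7 stayed past 2-fold without H2-T23, and 2.39% of genes were higher. With the GC trend removed, 7 members (without H2-T24), a median of 1.66, 2.06% of genes, and 1 higher and 0 lower neighbours were found. With the length trend removed, the median was 1.57 and 2.497% of genes were higher.

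With a pseudocount of 0.1, the members' median was 1.95, 5.76% of genes were higher and 1 class I-like gene was lower. At 0.01 these were 1.96, 6.51% and 1, with 2 class I-like, 8 other class I and 1 class II genes higher and 1 other class I gene lower. Without a pseudocount they were 1.96, 6.59% and 1, with 2, 8 and 2 higher and 1 other class I gene lower, most of these genes having few counts. FPKM on a common sum gave a median of 1.67, 3.70% of genes and 1 higher neighbour, and CPM gave 4.17% of genes. At 1.5-fold, 13.3% of genes, 2 class I-like genes and 2 neighbours were higher and 2 neighbours lower. At 4-fold, 3 members, 2 other class I genes, 0 genes of peptide supply, 1 transcription factor and 0.687% of genes were higher and 0 neighbours lower. Over all deposited genes 1.41% were higher, and 3.61% of those with a mean of at least 5 FPKM. The causes of these shifts were not tested, beyond what the thresholds and filters fix.

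No paired analysis was possible because each condition has 1 library, and none was left out in turn. Depth limits H2-T24 most, with 364 and 114 counts.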
